A study of Homo sapiens with 24 samples.

Results

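The cytosolic ribosomal protein genes encode the proteins that, together with 4 ribosomal RNAs, make up the large and the small subunit of the ribosome that translates nuclear mRNAs. They were taken as the protein-coding genes on the primary chromosomes whose symbol begins with RPL or RPS followed by a number, with an A or X allowed at the end, plus RPLP0, RPLP1, RPLP2 and RPSA. Pseudogenes were left out. This gave 77 of the 60675 genes in the count tables, 46 of the large subunit and 31 of the small subunit. The rule uses no measured value, but it was chosen with earlier results of these data known.

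RNA-seq libraries came from 2 human kidney cell lines, 24 libraries in all, 3 for each of 8 groups. ACHN is a renal carcinoma line, labelled as clear cell renal cell carcinoma (ccRCC), and HK-2 (labelled HK2) is an immortalised line from the proximal tubule. Each line was studied with a control hairpin (shNC), with a hairpin against the histone demethylase KDM5C (shKDM5C), with a hairpin against the transcription factor YY1 (shYY1), and with both (Dsh). All groups were stable lentiviral lines selected with puromycin, and Dsh cells were made by infecting YY1-depleted cells with a KDM5C hairpin vector that carries GFP, so Dsh differed from shYY1 by a second infection as well as by the hairpin. Which of the hairpins tested for each gene was used for sequencing is not given in the sources used here, and nothing says that the 3 replicates came from separate infections. P-values therefore measure the spread between these libraries, which may be technical. The study asked whether cells that have lost KDM5C depend on YY1, and the comparisons below ask how the genes of the ribosome itself stood in each knockdown.

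A cell makes each ribosomal protein in about the same number of copies, and the genes are read at high levels in nearly every cell type. Their mRNAs are known for the 5′ terminal oligopyrimidine (TOP) tract, a run of C and T that starts with C at the first transcribed base. It lets mTORC1 and the RNA-binding protein LARP1 switch the translation of all of them together. Several have duties outside the ribosome. RPL5 and RPL11 bind MDM2 when ribosome assembly fails, and RPS6 is the substrate of S6 kinase. YY1 is known to bind near start sites at a motif built around ATGG, and sites of this kind have been described in ribosomal protein gene promoters.

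The start sites of 8 genes are shown because they return in the results, and because 7 of them carry the tract that is common in the family. The sequences are from RefSeq (GRCh38.p14), 60 bases each, 40 before and 20 from the annotated start, 5′ to 3′ on the gene's strand. Capitals mark the unbroken pyrimidine run that begins with C at the start.
RPL38 (chr17:74203638-74203697, plus strand): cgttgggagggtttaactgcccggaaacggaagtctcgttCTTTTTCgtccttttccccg
RPS27 (chr1:153990722-153990781, plus strand): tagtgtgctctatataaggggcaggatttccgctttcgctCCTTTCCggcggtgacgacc
RPS21 (chr20:62387063-62387122, plus strand): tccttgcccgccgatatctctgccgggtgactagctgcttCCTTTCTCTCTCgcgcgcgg
RPS23 (chr5:82278335-82278394, minus strand): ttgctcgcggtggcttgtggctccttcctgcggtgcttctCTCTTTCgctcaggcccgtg
RPL39 (chrX:119791611-119791670, minus strand): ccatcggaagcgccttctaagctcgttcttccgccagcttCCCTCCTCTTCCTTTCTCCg
RPS6 (chr9:19380217-19380276, minus strand): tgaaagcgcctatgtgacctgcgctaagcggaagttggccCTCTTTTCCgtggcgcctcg
RPL11 (chr1:23691766-23691825, plus strand): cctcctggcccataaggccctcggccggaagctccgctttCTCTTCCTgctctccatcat
RPS29 (chr14:49598691-49598750, minus strand): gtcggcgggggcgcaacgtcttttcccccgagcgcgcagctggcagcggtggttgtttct
RPS29 has no capitals because its annotated start is not a C, which says only that this window does not begin with the tract. Of the 77 genes, 62 had a window in the table, and 46 of these (74.2%) had at least 1 annotated start with C and at least 4 further pyrimidines. Among the 27243 other genes with a window the share was 4.99%.

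The letters of a YY1 motif were searched in the same windows, from 250 bases before to 50 after the start, on both strands. AAGATGGCG was found in 5 of the 62 genes (8.06%, against 2.12% of other genes), and the wider AANATGGC, which contains it, in 10 (16.1%, against 7.95%). The letters CCGGAAG, the core read by ETS family factors, were in 22 (35.5%, against 12.1%). The 5 stretches with AAGATGGCG are shown since YY1 was one of the genes depleted, with the match in capitals, written as CGCCATCTT where it lies on the other strand.
RPL13A (chr19:49487617-49487645, plus strand): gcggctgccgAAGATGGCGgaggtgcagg
RPL21 (chr13:27251563-27251591, plus strand): cggccggaacCGCCATCTTccaggtaggg
RPL24 (chr3:101686691-101686719, minus strand): tctttcttttCGCCATCTTttgtctttcc
RPL35A (chr3:197950190-197950218, plus strand): cttctcttacCGCCATCTTggctcctgtg
RPS28 (chr19:8321343-8321371, plus strand): gggtggcggaCGCCATCTTccgtccgcga
In the first 4 of these the match begins 10 to 20 bases after the start, and in RPS28 it begins 143 bases before it. A match in letters does not show that YY1 binds there.

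Before the ribosomal protein genes were compared, the libraries were checked. Between 15926561 and 24272298 read pairs per library were counted on genes. KDM5C was lower in both lines with its hairpin, with means of 69.6 CPM (counts scaled to library size) in shNC and 42.1 in shKDM5C ACHN cells, and 193.9 and 57.8 in HK-2 cells. YY1 went from 136.8 CPM in shNC to 75.5 in shYY1 ACHN cells and from 211.0 to 64.8 in HK-2 cells. In Dsh cells YY1 was at 96.0 CPM in ACHN and 74.98 in HK-2. KDM5C had means of 89.1 CPM in ACHN shYY1 and 246.7 in HK2 shYY1, above shNC in both lines. In Dsh cells KDM5C was at 40.2 CPM in ACHN and 68.9 in HK-2. PAX8, KRT8, KRT18 and GGT1 were expressed in every library, while the proximal tubule genes ANPEP, AQP1, LRP2, CUBN and SLC34A1 stayed at or under 1.15 CPM in all 24, and of 4 clear cell carcinoma genes CA9, EGLN3 and NDUFA4L2 stayed at or under 1.92 CPM in every ACHN library. The remaining one, ANGPTL4, had means of 5.21 CPM in ACHN shNC, 31.1 in shKDM5C, 13.6 in shYY1 and 267.6 in Dsh cells. The tubule gene PAX2 differed between groups, with means of 27.66 CPM in ACHN shNC, 8.885 in shKDM5C, 82.24 in shYY1 and 5.274 in Dsh cells. In HK-2 cells the PAX2 means were 9.825 CPM in shNC, 26.89 in shKDM5C, 2.775 in shYY1 and 1.845 in Dsh. Replicate 1 of HK2 shKDM5C stood apart, with a correlation of log2 CPM of 0.917 and 0.919 with its 2 replicates, against at least 0.993 between all other replicates, and 11.8% of its counts on mitochondrial genes where its replicates had 5.13% and 5.28%. Results that rest on it are given with and without it.

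Counts on the 77 genes made up 2.44% to 4.58% of the counts of a library. In ACHN cells the share was 4.15% ± 0.0823 (SD, n = 3) in shNC, 4.05% ± 0.212 in shKDM5C, 4.08% ± 0.128 in shYY1 and 3.66% ± 0.376 in Dsh cells. The Dsh replicates were uneven, with 4.08%, 3.37% and 3.52%, so that replicate 1 lay inside the range of shNC (4.07% to 4.23%) and the others below it. In HK-2 cells the share was 3.14% ± 0.0981 in shNC, and 4.31% ± 0.293 in shYY1, where the 3 libraries (4.36%, 3.998% and 4.58%) lay above every other HK-2 library. It was 3.10% ± 0.124 in HK2 Dsh and 2.79% ± 0.328 in HK2 shKDM5C, where replicate 1 was lowest at 2.44%. In bulk RNA such shares cannot tell more mRNA of these genes in each cell from less of other mRNAs.

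**Figure D1:**
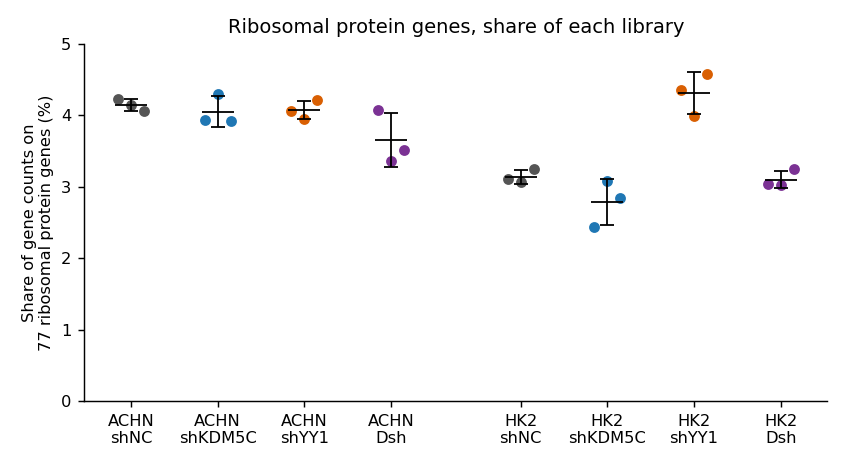
Share of each library's gene counts (percent, vertical axis) on the 77 ribosomal protein genes, by group. Points are libraries, bars the mean ± SD of 3. The 3 HK2 shYY1 libraries lie between 3.998% and 4.58%, above the other HK-2 libraries, and the ACHN Dsh libraries spread from 3.37% to 4.08%.

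The genes differed widely in level. Per kilobase of annotated exons, the highest were RPS2, with a mean over all 24 libraries of 776.9 CPM per kilobase, RPS12 (649.8), RPL41 (504.2), RPLP0 (488.1) and RPL13A (482.3). The lowest were RPS10 (1.98), RPL36A (2.17), RPL17 (5.04), RPS29 (6.63) and RPL26 (9.72). The annotated exons of all isoforms together can be far longer than the mRNA, and per kilobase of coding sequence RPL41, which encodes a peptide of the large subunit with only 75 coding bases, ranked first and RPS29 moved from place 74 to place 68. RPS10, RPL36A and RPL17 were the last 3 on both scales. RPS10, which had as few as 38 counts in a library, and RPL36A and RPL17 each have overlapping read-through genes or near-identical pseudogenes that can take their reads, so their levels are uncertain. Reads of RPL26 can be lost in the same way, so its level is uncertain too.

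In HK-2 cells YY1 depletion went with a rise of almost the whole family. In HK2 shYY1 against shNC, 74 of the 77 genes rose and 0 fell (adjusted p under 0.05, edgeR's quasi-likelihood test), where 14.3% of the 16071 genes tested were higher and 14.7% lower. The median log2 fold change of the 77 was 0.52 (1.43-fold) against 0.01 over all genes, and their lower and upper quartiles were 0.41 and 0.62. The subunits did alike, with 45 of 46 large subunit genes (median 0.51) and 29 of 31 small subunit genes (median 0.55) higher. For 72 of the 74 the 3 shYY1 libraries lay above all 3 shNC libraries. Genes that missed the threshold were RPL17 (log2 fold change -0.09), RPS15A (0.17) and RPS10 (0.22).

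RPL38, a small protein at the surface of the large subunit, had 73.9, 72.2 and 98.8 CPM in the HK2 shNC replicates and 181.1, 106.0 and 179.5 CPM in shYY1. Its log2 fold change was 0.93 (standard error, SE, 0.135, adjusted p = 1.47e-05). RPS27, a zinc-binding protein of the small subunit, went from 121.0, 138.1 and 175.1 to 309.3, 183.9 and 330.8 CPM (log2 fold change 0.93, SE 0.139, adjusted p = 2.28e-05), and RPS21 from 166.2, 171.8 and 202.6 to 348.6, 257.1 and 371.9 CPM (0.86, SE 0.0920, adjusted p = 2.65e-07). In all 3 genes the groups did not overlap, and shYY1 replicate 2 was the lowest of its group. RPS29 had the largest log2 fold change of all (1.04, SE 0.187, adjusted p = 1.81e-04), but its shYY1 replicate 2 (69.4 CPM) lay below shNC replicate 3 (75.8 CPM). Without shYY1 replicate 2, 74 genes were again higher, with a median of 0.55.

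The members with known duties outside or at the active parts of the ribosome moved with the rest in HK2 shYY1. RPL11 went from 359.0, 320.9 and 387.9 to 616.3, 497.8 and 643.3 CPM (log2 fold change 0.72, SE 0.0729, adjusted p = 1.16e-07), and RPL5 rose by 0.48 (SE 0.0452, adjusted p = 4.16e-08). RPS14 and RPS19, small subunit genes whose loss causes anaemia with failed ribosome assembly, rose by 0.66 and 0.59. RPS6 rose by 0.55 and RPL22 by 0.48. Lower in this range were RPS27A (0.45), which is made as a fusion with ubiquitin, the stalk protein RPLP0 (0.39), RPL10 (0.39), which is needed for the last step of large subunit maturation, and RPSA (0.36), the laminin receptor. All 10 had shYY1 libraries above all shNC libraries, and the largest adjusted p among these 10 was 3.51e-06 (RPS27A).

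**Figure D2:**
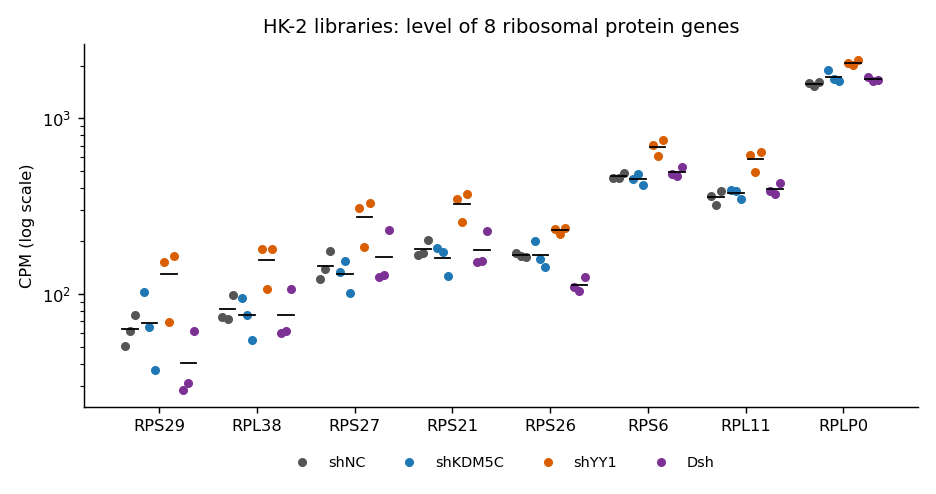
Level (CPM, log scale) of 8 ribosomal protein genes in the 12 HK-2 libraries. Points are libraries and lines group means. For each gene except RPS29 the 3 shYY1 libraries lie above the 3 shNC libraries. In RPS29, RPL38 and RPS27 the shYY1 replicate nearest to shNC is replicate 2, and Dsh replicate 3 is the highest of its group.

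The rise was larger in genes with short coding sequences, and short genes outside the family rose too. Across the 77 genes, which are not independent replicates and share the same libraries, the log2 fold change in HK2 shYY1 correlated with the log2 of coding length at r = -0.45 (Spearman's rho = -0.48). Among the other genes tested, those under 300 coding bases had a median log2 fold change of 0.22 (249 genes) and those of the next longer class 0.11 (1259 genes), against -0.09 in the longest of 6 classes (1907 genes). The ribosomal protein genes of the first 2 length classes had medians of 0.82 (9 genes) and 0.52 (46 genes). With the trend of each library with coding length taken out, 72 genes were still higher and the median was 0.45, where that of all genes was 0.05. With all 4 HK-2 groups in 1 fit, which adds the library that stands apart to the estimate of the spread, 48 genes were higher, where 2.16% of all genes were. Without that library, a fit added after the data were seen, 74 were higher.

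**Figure D3:**
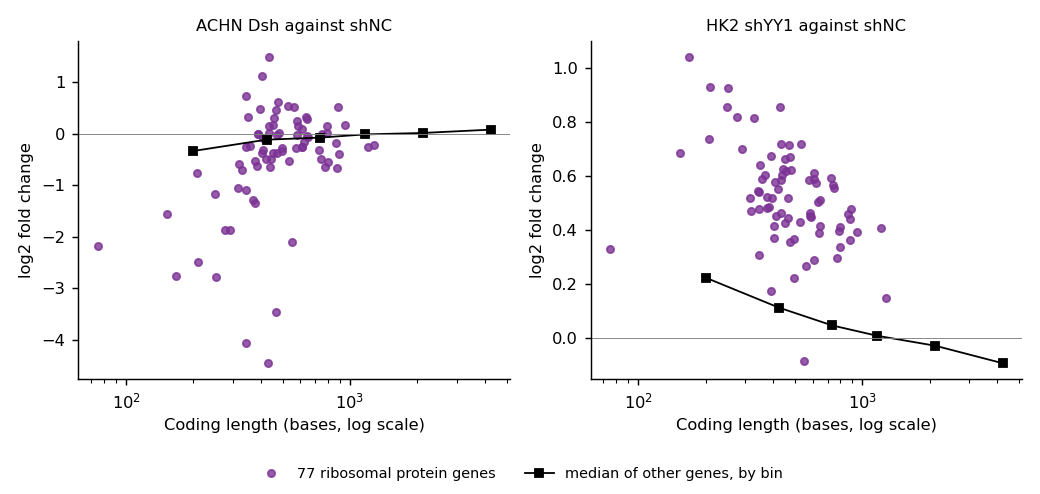
Log2 fold change (vertical axis) against coding length of the main transcript (bases, log scale) for ACHN Dsh and HK2 shYY1, each against shNC. Purple points are the 77 ribosomal protein genes and black squares the medians of other genes in 6 length classes, from -0.34 to 0.08 in ACHN Dsh and from 0.22 to -0.09 in HK2 shYY1. Most of the ribosomal protein genes lie above the squares in HK2 shYY1, and in ACHN Dsh the shortest lie far below them.

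The HK2 shYY1 changes were also set beside the letters in the promoter windows. The 46 genes with a pyrimidine tract at a start had a median log2 fold change of 0.54 and the 16 without 0.45. The 5 genes with AAGATGGCG had a median of 0.71 (range 0.61 to 0.81) and the 57 without it 0.48 (range -0.09 to 1.04). The 10 with the wider AANATGGC, these 5 among them, had a median of 0.62 and the 52 without it 0.48. The lowest value of the 5 lay near the upper quartile of the 77 genes (0.62). In ACHN shYY1 the 5 genes with AAGATGGCG had a median of 0.06 (range -0.23 to 0.06) and the 57 without it -0.01. For the wider AANATGGC the ACHN shYY1 medians were -0.015 with it and -0.008 without. These are descriptions of a small group that lies inside the range of the others, and the differences were not tested.

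Where KDM5C was depleted on top of YY1, the family was back near the control level. In HK2 Dsh against shYY1, 75 genes fell and 0 rose, against 22.9% lower and 24.8% higher of the 15947 genes tested, with a median log2 fold change of -0.50 over the 77 genes. The largest falls were in RPS29 (-1.67, SE 0.229, adjusted p = 1.81e-06), RPL38 (-1.03), RPS26 (-1.02) and RPS13 (-0.96), and the genes that missed the threshold were RPS15A (-0.10) and RPL17 (-0.06). The shYY1 libraries are also those of the comparison above, so a part of each value is shared.

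Against shNC, HK2 Dsh cells had 13 genes lower and 21 higher, where 24.3% of all 16217 genes tested were lower and 25.5% higher, with a median of 0.01. RPLP1, an acidic protein of the ribosomal stalk, had 497.4, 478.7 and 487.2 CPM in shNC and 637.9, 591.2 and 629.4 CPM in Dsh, a log2 fold change of 0.35 (SE 0.0397, adjusted p = 8.51e-09). RPL5 (0.29) was also among the highest. RPS26, a protein at the mRNA exit of the small subunit, went from 171.4, 163.2 and 161.9 to 109.7, 104.4 and 124.8 CPM (-0.54, SE 0.0547, adjusted p = 8.36e-10), RPS13 fell by 0.54 and RPL41 by 0.39. In these 5 genes the groups did not overlap, while RPS29, which had the lowest log2 fold change of all (-0.64), overlapped. RPSA fell by 0.18, RPL11 rose by 0.16, RPS14 by 0.16 and RPLP0 by 0.09, while RPS6 (0.08), RPS19 (0.05), RPL10 (0.01), RPL22 (-0.01) and RPS27A (-0.07) did not pass the test. Leaving out Dsh replicate 3 gave 24 genes lower and 16 higher, and with all 4 groups in the fit 3 were lower and 2 higher, or 11 and 18 without the library that stands apart.

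The interaction sets the log2 change of Dsh cells against the added changes of shKDM5C and shYY1 cells. In HK-2 cells 15 genes were below that sum and 0 above, where 4.4% and 5.21% of 17093 genes were. The median over the family was -0.43, and 75 of the 77 values were negative. RPS26 (-1.04, SE 0.170, adjusted p = 0.00237), RPL26 (-0.87) and RPS13 (-0.83) were the lowest past the threshold. The count depended on the HK2 shKDM5C library that stands apart. Without it 59 genes were below the sum, where 13.7% of all genes were, and the median was -0.41.

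In ACHN cells YY1 depletion did not move the family together. In ACHN shYY1 against shNC 19 genes were lower and 12 higher, where 24.5% of all 16370 genes tested were lower and 24.2% higher, and the median was -0.00, with a range of -0.46 to 0.30. RPL26 went from 16.8, 16.7 and 15.1 to 12.2, 12.1 and 11.5 CPM (log2 fold change -0.46, SE 0.0864, adjusted p = 3.2e-05), RPL23 fell by 0.39 and RPL19 by 0.24. RPS20 rose from 520.2, 511.5 and 510.8 to 626.3, 588.8 and 709.2 CPM (0.30, SE 0.0376, adjusted p = 3.48e-08), RPL7 by 0.24 and RPS7 by 0.20. All 6 had no overlap between groups. Of the members with other duties, RPS19 rose by 0.12, RPL22 fell by 0.15, RPL5 by 0.13, RPS14 by 0.10, RPS27A by 0.10 and RPSA by 0.08. RPL11 (0.01), RPS6 (-0.04), RPLP0 (-0.02) and RPL10 (0.03) did not pass the test. With all 4 ACHN groups in the fit 7 were lower and 6 higher.

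The difference between the lines was tested directly. The shYY1 effect was lower in ACHN than in HK-2 cells for 73 of the 77 genes and higher for 0, where 16.5% and 16.6% of 18010 genes were lower and higher, with a median difference of -0.49. It was largest for RPL38 (-1.19, SE 0.173, adjusted p = 2.83e-06), RPL26 (-1.17) and RPS29 (-1.02). YY1 itself went from 136.8 to 75.5 CPM in ACHN and from 211.0 to 64.8 CPM in HK-2 cells. Depth of depletion and cell line therefore cannot be told apart here.

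**Figure D4:**
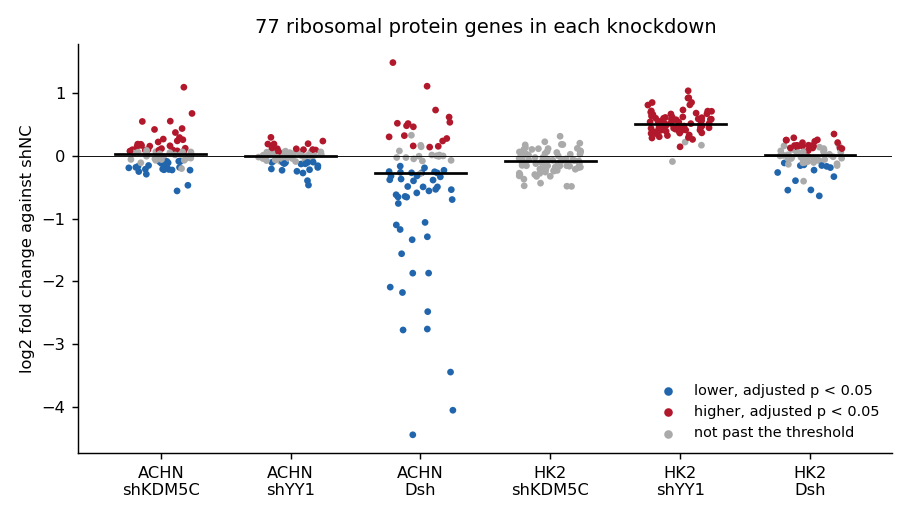
Log2 fold change against shNC (vertical axis) of the 77 ribosomal protein genes in each of 6 comparisons. Each point is 1 gene, coloured by the edgeR call, and bars are medians. In HK2 shYY1 all but 1 of the points lie above 0 with a median of 0.52, while ACHN Dsh ranges from -4.45 to 1.49.

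KDM5C depletion alone gave changes in both directions in ACHN cells. In ACHN shKDM5C against shNC 23 genes were lower and 28 higher, where 27.7% and 28.9% of 16184 genes were, with a median of 0.03. The lower count was 14 without shKDM5C replicate 3, 15 without shNC replicate 1, 8 with all 4 groups in the fit, and 11 to 15 with trends in gene length, gene length and GC content, or transcript length taken out. RPL26, a large subunit protein, went from 16.8, 16.7 and 15.1 to 29.6, 44.5 and 30.7 CPM (log2 fold change 1.10, SE 0.109, adjusted p = 3.72e-09). RPS10 (0.68) and RPL17 (0.56) also rose, and RPL36A fell by 0.29, but with the counts of pseudogenes named after each gene added, RPL17 changed by -0.34, RPL36A by 0.16 and RPS10 by -0.01. RPS23, at the decoding centre of the small subunit, fell from 285.0, 281.7 and 286.9 to 192.9, 213.0 and 177.6 CPM (-0.56, SE 0.0427, adjusted p = 3.3e-11), and RPL35 fell by 0.47. RPS27A rose by 0.44, RPSA by 0.27 and RPLP0 by 0.08, RPL11 fell by 0.22, RPL22 by 0.12 and RPS6 by 0.11, and RPL5 (-0.02), RPS19 (0.07), RPS14 (-0.00) and RPL10 (0.02) did not pass the test.

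In HK2 shKDM5C 0 of the 77 genes passed the threshold in either direction, where 0.656% of 16161 genes were lower and 0.668% higher. At an unadjusted p under 0.05, 2 were lower and 0 higher, and DESeq2 called 1 lower and 0 higher. The median was -0.08 and the range -0.48 to 0.32. For RPL11 the log2 fold change was 0.07 (SE 0.117) and for RPS6 -0.05 (SE 0.105). Changes near the size of these standard errors could not be seen with the libraries as deposited, and larger ones may have been missed. Without replicate 1, 20 genes were lower and 1 higher, where 10.9% and 11.5% of all genes were, with a median of -0.09. The shKDM5C effect differed between ACHN and HK-2 cells in 6 genes, 1 lower in ACHN (RPS23, -0.49) and 5 higher, among them RPS28 (1.04), RPL26 (0.99) and RPL9 (0.64), where 6.18% and 5.74% of 17948 genes were lower and higher. Without HK2 shKDM5C replicate 1 the numbers were 9 and 23. KDM5C went from 69.6 to 42.1 CPM in ACHN and from 193.9 to 57.8 CPM in HK-2 cells, so depth of depletion and line cannot be told apart.

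In ACHN Dsh the family split apart. Against shNC 45 genes fell and 16 rose, where 32% of 16454 genes fell and 30.7% rose, with a median log2 fold change of -0.27 and a range from -4.45 to 1.49. Past a log2 fold change of -1.5 there were 11 genes lower, where 5.61% of all genes tested were, and 0 of the 77 in the other 5 comparisons with shNC. Large subunit genes were lower in 32 of 46 (median -0.35) and small subunit genes in 13 of 31 (median -0.02).

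RPS23 had 285.0, 281.7 and 286.9 CPM in the shNC replicates and 14.1, 12.3 and 12.8 CPM in Dsh, a log2 fold change of -4.45 (SE 0.0578, adjusted p = 3.19e-20). RPL30, which sits at a bridge between the subunits, went from 231.7, 227.9 and 227.1 to 15.9, 13.8 and 11.9 CPM (-4.06, SE 0.0718, adjusted p = 1.67e-18), and RPL23A, at the exit of the peptide tunnel, from 460.2, 463.4 and 452.6 to 47.6, 42.4 and 36.8 CPM (-3.45, SE 0.0680, adjusted p = 7.17e-18). No Dsh library came near a library of the other 3 ACHN groups in these genes. They were followed by RPS27 (-2.78), RPS29 (-2.76), RPL38 (-2.48), RPL41 (-2.18), RPL17 (-2.09), RPL37 (-1.87), RPL37A (-1.87) and RPL39 (-1.56). The genes whose log2 CPM over the 12 ACHN libraries was most like that of RPS23 were RPL30 (Pearson's r = 0.997), RPL23A (0.987) and RPL37 (0.980). The 12 include the Dsh libraries in which all of these fell, so the correlations largely restate that fall.

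Other genes of the same subunits rose. RPL26 went from 16.8, 16.7 and 15.1 CPM in shNC to 50.5, 48.4 and 38.6 CPM in Dsh (log2 fold change 1.49, SE 0.0958, adjusted p = 1.36e-10). Its level is uncertain, as given above, and pseudogenes named after RPL26 had 4.597 CPM in ACHN shNC and 4.495 in Dsh. RPLP1 rose by 0.73 and RPL29 by 0.62. Of the members with known other duties, RPSA rose by 0.52, RPS27A by 0.47, RPL10 by 0.28 and RPLP0 by 0.16. RPL22 fell by 0.62, and RPL11 and RPL5, the pair that binds MDM2, fell by 0.53 and 0.40. RPL11 had 517.5, 469.5 and 500.5 CPM in shNC and 390.3, 299.4 and 341.6 in Dsh, without overlap. RPS6 (0.00), RPS19 (0.15) and RPS14 (0.17) did not pass the test.

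**Figure D5:**
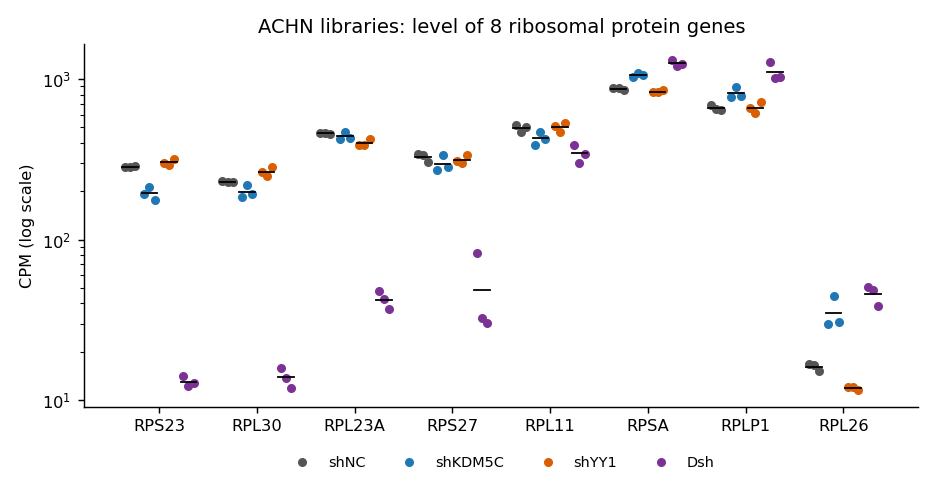
Level (CPM, log scale) of 8 ribosomal protein genes in the 12 ACHN libraries. Points are libraries and lines group means. In RPS23, RPL30 and RPL23A the 3 Dsh libraries lie between 11.9 and 47.6 CPM, below every other library, and in RPLP1 and RPL26 the Dsh libraries lie above shNC. For RPS27 Dsh replicate 1 (82.1 CPM) is above replicates 2 (32.5) and 3 (30.3).

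Beside these values stand 3 measurements on the same libraries. First, genes with short coding sequences were lower in ACHN Dsh in general. Other genes under 300 coding bases had a median log2 fold change of -0.34 (253 genes) and those of the longest class 0.08 (1960 genes). The 9 ribosomal protein genes under 300 bases all fell, with a median of -1.87, and over the 77 genes the change correlated with log2 coding length at r = 0.44 (Spearman's rho = 0.42). RPS23 (429 coding bases), RPL30 (345) and RPL23A (468) belong to the next longer class. With the trend of each library with coding length taken out, 37 genes were lower and 28 higher. Second, the Dsh replicates differed. Without replicate 1, 52 genes were lower and 16 higher with a median of -0.36, and RPS23 (-4.50), RPL30 (-4.16) and RPL23A (-3.54) kept their size. Last, counts on pseudogenes named after the 77 genes changed as well, in some cases against the direction of the gene and in others with it. Pseudogenes of RPSA together had 188.9 ± 8.77 CPM (SD, n = 3) in ACHN shNC, 187.7 in shKDM5C, 182.2 in shYY1 and 10.8 ± 1.60 in Dsh cells, against 6.77 to 12.1 in the 4 HK-2 groups, while RPSA itself rose in Dsh. Those of RPL29, which also rose, went from 28.5 to 3.998 CPM. With pseudogene counts added the rise of RPSA was 0.25 in place of 0.52. Pseudogenes of RPS27 went from 61.6 to 4.77 CPM, those of RPL24 from 63.3 to 6.65, and those of RPS2 from 563.3 to 249.4. These went in the direction of the 3 genes. Those of RPS27A rose with their gene from 12.3 to 60.6 CPM. Pseudogenes of RPS23 and RPL30 stayed under 1 CPM in ACHN shNC and Dsh. Those of RPL23A had 23.6 CPM in shNC and 26.4 in Dsh, and RPL23A itself had means of 458.7 and 42.3 CPM. The part of coding length, replicate and pseudogenes in the ACHN Dsh changes was not tested beyond these values.

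Against shYY1 cells the ACHN Dsh values were much the same. There 43 genes fell and 17 rose, where 32.7% and 32% of 16414 genes did, led by RPS23 (-4.53), RPL30 (-4.27) and RPL23A (-3.25) and, upward, by RPL26 (1.94), genes named here by size. In the interaction 44 genes were below the sum of the single knockdowns and 13 above (28.8% and 26.8% of 17228 genes), with RPL30 (-4.06, SE 0.0971, adjusted p = 2.69e-21), RPS23 (-3.98) and RPL23A (-3.19) lowest, and RPL26 (0.83) and RPL29 (0.78) among the highest. The Dsh effect was lower in ACHN than in HK-2 cells for 40 genes and higher for 11 (22.7% and 23.3% of 18087 genes), with RPS23 (-4.54), RPL30 (-3.98) and RPL23A (-3.66) lowest, and RPL26 (1.55) and RPSA (0.72) among the highest. These comparisons share the Dsh libraries and are not independent of each other. In the comparison of lines, depth of depletion cannot be told apart from the line.

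Control cells of the 2 lines also differed. In ACHN shNC against HK2 shNC 58 genes were higher and 11 lower, where 38.6% and 38% of 16988 genes were, with a median log2 difference of 0.43. RPL23A had 475.9, 479.0 and 468.6 CPM in ACHN and 108.8, 111.2 and 108.2 in HK-2 (log2 difference 2.12, SE 0.0349, adjusted p = 1.64e-27), followed by RPS23 (1.64) and RPL17 (1.48). RPS10 (-0.65), RPS21 (-0.62) and RPS28 (-0.58) were the lowest. RPS10 had means of only 2.49 CPM in ACHN and 3.90 in HK-2. The levels of RPS10 and RPL17 are uncertain, as given above, and so are these differences. The lines are 1 line of each kind, so a difference between them is one between these lines.

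Genes that serve the ribosome without being part of it were followed as lists, also chosen with earlier results of these data known. In HK2 shYY1, 14 of 16 translation elongation and TOP mRNA factors tested rose and 0 fell (median 0.22), among them NAP1L1 (0.45) and the elongation factor EEF1A1 (0.45). Of 13 snoRNA host genes 12 rose and 0 fell (median 0.47), and of 9 ribosomal protein paralogs and fusion genes 7 rose (median 0.36), led by RPS27L (0.62) and RPL39L (0.48). Of 40 ribosome biogenesis factors 15 rose and 1 fell (median 0.13), and of 14 genes of RNA polymerase I and its factors 2 rose (median 0.02). The share of genes that rose was larger than among all genes (14.3%) in each of these lists except that of RNA polymerase I, where it was near it.

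In HK2 Dsh against shNC, 25 of 40 ribosome biogenesis factors fell and 1 rose (median -0.22), led by nucleolin, NCL (-0.62), and NOB1 (-0.53), which cuts the last precursor of the small subunit RNA, and 8 of 14 RNA polymerase I genes fell and 1 rose (median -0.26), where 24.3% of all genes fell and 25.5% rose. In ACHN Dsh the biogenesis factors went both ways, with 15 lower and 17 higher where 32% and 30.7% of all genes were, from GAR1 (-1.06) and NHP2 (-0.96), of the box H/ACA particles, to PNO1 (0.67). In ACHN shKDM5C 33 of 40 rose and 3 fell (median 0.33), where 28.9% of all genes rose and 27.7% fell. Of 14 regulators of mTORC1 and of TOP mRNAs, 3 rose and 3 fell in HK2 shYY1 (median 0.04), as in HK2 Dsh (median 0.04). In ACHN Dsh 7 of the 14 rose and 3 fell (median 0.16), and in ACHN shKDM5C 8 rose and 3 fell (median 0.195). In ACHN shYY1 10 rose and 0 fell (median 0.125), where 24.2% of all genes rose and 24.5% fell.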

How the data were processed

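The members and lists were chosen with earlier results of these data known. Total RNA was extracted with TRIzol and made into libraries with an NEBNext Ultra kit. How mRNA was selected is not given in the sources used here. Per the labels and the study's methods, the authors aligned reads with HISAT2 (2.0.5) and counted them per gene with featureCounts (1.5.0-p3 in the submitters' notes, 2.0.1 in the file headers), without strand, to give the deposited counts, which are whole numbers per gene, not normalized. Symbols were mapped from Ensembl IDs. Without strand, a gene and an overlapping antisense gene share reads, and pseudogenes or read-through genes can take reads of RPS10, RPL17, RPL36A and RPL26.

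Here each comparison was fitted on its own libraries with edgeR 4.0.16 (R 4.3.3): filterByExpr, TMM scaling and the quasi-likelihood F test, with p-values adjusted by Benjamini-Hochberg across every gene in the fit. All 77 members passed the filter in every comparison. Calls are at an adjusted p under 0.05, and the standard error is the log2 fold change divided by the square root of F. CPM were scaled by TMM within each cell line, so levels are compared within a line, and on a scale of their own for the 6 shNC libraries. Differences between lines are ACHN minus HK-2. An exact permutation test of 3 against 3 libraries cannot go below 0.1 and was not used. Libraries had 15926561 to 24272298 counts. Named genes were those with the largest called changes without overlap between groups, up to 3 each way per comparison, and 10 members with known roles. The genes named for Dsh against shYY1, those that missed a threshold and the further genes past the fold in ACHN Dsh were named after their values were seen. The steps were tested on simulated data with known changes. There 6.63% (HK2 shYY1) to 10.1% (shYY1 effect between lines) of the calls were genes left unchanged. Of genes changed by a log2 fold of 1, 40% (HK-2 interaction) to 88% (HK2 shYY1) were called. DESeq2 1.42.0, other filters and scalings, all 4 groups of a line in 1 fit, length and GC trends, added pseudogene counts, a replicate block and leaving out each replicate were alternatives. The trends with transcript or coding length and the fits of all 4 groups without HK2 shKDM5C replicate 1 were added after seeing the data. Replicate numbers did not pair the libraries. RPS4Y1 was left out. Some genes that the rule for named genes picks, and 1 list of related genes, are not reported here.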

Additional observations from a re-analysis of the deposited data

Results flagged for a closer look

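Effects of the same knockdown, as labelled, differed between ACHN and HK-2 cells by edgeR's quasi-likelihood test of the difference itself (ACHN minus HK-2). For shKDM5C, 1 member was lower and 5 were higher, with RPS28 at 1.04, RPL26 at 0.99, RPL9 at 0.64 and RPS23 at -0.49 on the log2 scale. For shYY1, 73 were lower, with RPL38 at -1.19, RPL26 at -1.17 and RPS29 at -1.02. For Dsh, 40 were lower and 11 higher, with RPL26 at 1.55, RPSA at 0.72, RPS23 at -4.54, RPL30 at -3.98 and RPL23A at -3.66. The hairpins did not lower KDM5C and YY1 to the same degree in the 2 lines, so depth of depletion and line cannot be told apart. Groups of 3 libraries are too small for a test of single outlying libraries.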

How the results depend on the processing

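Of 456 settings over 36 counts and shares, 393 stayed within the limits set and 63 moved. Of 2122 settings over 114 named genes, 1986 kept direction and side of the threshold, 91 lost the call, 38 gained it and 7 reversed. With all 4 groups in the fit, members lower and higher were 8 and 19 in ACHN shKDM5C, 7 and 6 in ACHN shYY1, 3 and 2 in HK2 Dsh, 1 lower in HK2 shKDM5C and 48 higher in HK2 shYY1. With a trend in gene length taken out, 12 were lower in ACHN shKDM5C, 26 higher in ACHN shYY1 and 33 lower in the HK-2 interaction. With gene length and GC content, 15 were lower in ACHN shKDM5C, 12 lower and 32 higher in ACHN shYY1, 25 higher in ACHN Dsh and 1 lower in HK2 shKDM5C. With canonical transcript length, 11 were lower in ACHN shKDM5C, 25 higher in ACHN shYY1 and 28 higher in ACHN Dsh, and with coding length, 22, 28 and 1 were higher in ACHN shYY1, higher in ACHN Dsh and lower in HK2 shYY1. In HK2 shKDM5C DESeq2 called 1 lower and an unadjusted p gave 2. Leaving out 1 library gave 14 to 32 lower and 21 to 36 higher in ACHN shKDM5C, 15 to 27 and 9 to 18 in ACHN shYY1, 42 to 52 and 15 to 20 in ACHN Dsh, 0 to 20 and 0 to 1 in HK2 shKDM5C, 73 to 75 higher in HK2 shYY1, 9 to 24 and 14 to 24 in HK2 Dsh, 4 to 59 lower in the HK-2 interaction, and 0 to 9 and 1 to 23 for the difference in shKDM5C effect. The share of counts, over non-mitochondrial counts, was 4.47%, 4.35% and 4.39% in ACHN shNC, shKDM5C and shYY1 and 3.32% and 3.26% in HK2 shNC and Dsh, and with pseudogenes 4.35%, 4.28%, 3.27% and 3.23% in ACHN shNC, ACHN shYY1, HK2 shNC and HK2 Dsh. The cause was not tested. Reversed in ACHN shKDM5C with pseudogene counts added were RPS10 (-0.00601), RPL17 (-0.34) and RPL36A (0.16), and in ACHN shYY1 with gene length and GC content RPS6 (0.0643), RPLP0 (0.0726), RPSA (0.0157) and RPS27A (0.00354).

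With a replicate block, members lower and higher were 22 and 28 in ACHN shKDM5C, 21 and 12 in ACHN shYY1, 45 and 18 in ACHN Dsh, 0 and 0 in HK2 shKDM5C, 0 and 75 in HK2 shYY1, 17 and 25 in HK2 Dsh, 46 and 13 in the ACHN interaction and 11 and 0 in the HK-2 interaction. Libraries of the same number did not deviate together, so the numbers do not pair them. Members with few counts, such as RPS10, are the least precise.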
